A study of Mus musculus with 23 samples.

Results

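The chromatin regions described here are those that were called open in all 3 biological samples of mouse maxillary prominence mesenchyme at embryonic day 10.5 (E10.5). They were found by merging the peaks of the 3 E10.5 lists that shared at least 1 bp on the 19 autosomes and chromosome X, and by keeping each merged region that held a peak from every list. Of 34547 merged regions, 4586 (13.3%) met this rule. ATAC-seq, an assay of transposase-accessible chromatin, reads where the Tn5 transposase can insert sequencing adapters, which it does mostly in DNA free of nucleosomes. The embryos were wild-type C57BL/6, with no transgene or treatment, and the ectoderm was peeled off the dissected prominences after Dispase II digestion. The 10 E10.5 runs came from 3 samples, with 2, 4 and 4 runs for samples 1, 2 and 3, and each sample had 1 peak list. The labels do not say how many embryos or litters were pooled into a sample, so the spread between samples may be partly technical.

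The maxillary prominence grows out of the pharyngeal arch that forms the jaws and gives rise to the upper jaw and the palatal shelves. Its mesenchyme is mostly neural crest in origin, is patterned by homeodomain, forkhead and other transcription factors, and receives Bmp, Fgf, Shh and Wnt signals from the overlying ectoderm. In most cell types the start sites of widely transcribed genes lie in CpG islands that stay free of nucleosomes, while enhancers away from start sites vary more between cell types.

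The lists of samples 1, 2 and 3 held 16057, 19095 and 14886 peaks. Each list held no read counts, so its depth is unknown, and the fold enrichment at a summit and its −log10 q are the authors' own values for that list. The median fold was 3.13, 2.56 and 2.58, and the largest was 7.47, 6.33 and 5.83. Sample 2 had the widest peaks (median 320 bp, against 226 and 182 bp in samples 1 and 3). Sample 3 stood apart on chromosome X, with 50 peaks there (0.336% of its list) against 231 (1.44%) in sample 1 and 319 (1.67%) in sample 2.

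The sequences at listed gene starts show what the region set is like. Of 21045 listed starts of protein-coding genes on chromosomes other than 18, 2942 (14.0%) had a peak of all 3 lists over the window from 250 bases before to 50 bases after the start. The windows of 4 mesenchyme markers and of 4 starts held by some of the strongest regions are shown as their 250 upstream bases. The bases are from RefSeq on GRCm38.p6 (mm10 coordinates), 5′ to 3′ on the gene's strand. Capitals mark CCAAT boxes (the letters CCAAT, or ATTGG on the other strand) and GC boxes (GGGCGG, or CCGCCC on the other strand). The Twist1 window (chr12:33957421-33957670, plus strand) lay inside a region called in all 3 lists, while the Dlx2 window (chr2:71546755-71547004, minus strand) was touched in 1 list, and the Prrx1 window (chr1:163313651-163313900, minus strand) and Tfap2a window (chr13:40734921-40735170, minus strand) in 0 lists. The windows of Add3 (chr19:53142506-53142755), Tob1 (chr11:94211204-94211453) and Dcbld2 (chr16:58408285-58408534), all on the plus strand, and of Nr1d2 (chr14:18239107-18239356, minus strand) had a peak in all 3.
Twist1: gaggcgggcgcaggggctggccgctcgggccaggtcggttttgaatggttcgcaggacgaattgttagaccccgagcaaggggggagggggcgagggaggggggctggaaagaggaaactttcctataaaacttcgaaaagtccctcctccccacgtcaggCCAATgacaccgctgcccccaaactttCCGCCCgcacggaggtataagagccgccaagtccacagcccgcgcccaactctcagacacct
Dlx2: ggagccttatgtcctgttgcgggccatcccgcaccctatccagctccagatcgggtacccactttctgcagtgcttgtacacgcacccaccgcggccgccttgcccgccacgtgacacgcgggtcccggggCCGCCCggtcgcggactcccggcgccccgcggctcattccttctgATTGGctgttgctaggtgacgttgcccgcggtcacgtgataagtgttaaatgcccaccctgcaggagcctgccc
Prrx1: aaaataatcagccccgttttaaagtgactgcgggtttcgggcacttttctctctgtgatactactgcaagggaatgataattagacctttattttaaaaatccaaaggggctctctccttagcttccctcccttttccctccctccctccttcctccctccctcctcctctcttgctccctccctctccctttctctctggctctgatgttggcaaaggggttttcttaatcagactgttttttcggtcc
Tfap2a: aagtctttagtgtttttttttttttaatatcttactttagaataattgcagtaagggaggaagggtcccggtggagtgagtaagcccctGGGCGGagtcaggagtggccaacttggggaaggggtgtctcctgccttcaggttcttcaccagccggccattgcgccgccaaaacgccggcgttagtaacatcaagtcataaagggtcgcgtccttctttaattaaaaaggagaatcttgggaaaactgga
Add3: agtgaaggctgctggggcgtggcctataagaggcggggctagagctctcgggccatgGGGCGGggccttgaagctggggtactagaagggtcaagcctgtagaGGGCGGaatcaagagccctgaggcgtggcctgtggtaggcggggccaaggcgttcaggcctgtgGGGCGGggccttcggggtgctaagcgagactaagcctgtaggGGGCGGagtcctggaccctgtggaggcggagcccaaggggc
Tob1: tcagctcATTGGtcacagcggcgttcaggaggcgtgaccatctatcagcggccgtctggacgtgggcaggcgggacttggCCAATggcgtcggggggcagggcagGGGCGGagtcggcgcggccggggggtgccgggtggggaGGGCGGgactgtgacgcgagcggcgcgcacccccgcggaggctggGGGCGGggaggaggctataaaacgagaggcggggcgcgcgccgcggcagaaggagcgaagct
Dcbld2: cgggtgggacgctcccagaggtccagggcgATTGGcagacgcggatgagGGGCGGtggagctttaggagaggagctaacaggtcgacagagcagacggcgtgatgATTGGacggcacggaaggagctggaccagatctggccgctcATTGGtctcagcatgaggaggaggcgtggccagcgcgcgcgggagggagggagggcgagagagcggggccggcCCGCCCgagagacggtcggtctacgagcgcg
Nr1d2: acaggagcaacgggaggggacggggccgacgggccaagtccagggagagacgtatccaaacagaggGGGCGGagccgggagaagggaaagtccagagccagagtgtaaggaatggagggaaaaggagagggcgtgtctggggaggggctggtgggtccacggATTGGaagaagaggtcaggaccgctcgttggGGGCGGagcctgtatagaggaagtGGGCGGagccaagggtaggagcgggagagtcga

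These printed stretches differ in CpG content and in GC boxes. Tob1 had 32 CpG in 250 bases and Dcbld2 27, against 4 at Prrx1 and 10 at Tfap2a. Twist1 had 18 and Dlx2 24. Add3 and Nr1d2 had 13 and 15, fewer than Dlx2, whose window was touched in 1 list only. Other starts at the strongest regions, with a peak in all 3 lists, are not shown: Pdcd10 had 11 CpG, Opn3 23 and Pja2 32. A further Tfap2a start, also not shown and with a peak in 0 lists, had 10. Add3 held 4 GC boxes and no CCAAT box, Tob1 3 GC boxes and 2 CCAAT boxes, and Prrx1 neither. A match is a stretch of letters and not a bound site.

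Over all listed starts the same features varied with the number of lists that had a peak there. The 300-base windows with a peak in 0, 1, 2 and 3 lists had a median of 6, 20, 24 and 25 CpG. Only 0.408% of the 2942 windows open in all 3 lists held 5 or fewer CpG, against 47.2% of the 13703 windows with no peak and 31.7% of all windows. The GC content was 64.9% ± 6.60 (SD over 2942 windows) with 3 lists and 52.5% ± 11.3 (SD over 13703 windows) with none. Windows with a peak in 1, 2 or 3 lists were thus richer in CpG than windows with none, and the steps between 1, 2 and 3 lists were small.

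The motif letters moved with the CpG content in part. A GC box, the letters read by Sp and Klf factors, stood in 79.2% of windows open in 3 lists, 32.9% of those with no peak and 46.7% of all windows. The ETS core CCGGAAG (or CTTCCGG) stood in 21.3%, 7.79% and 11.7%. The CCAAT box, the letters read by NF-Y, stood in 48.0%, 37.3% and 38.5%. The TATA letters TATAAA (or TTTATA) went the other way, at 3.20%, 17.1% and 12.7%, as did the homeodomain core TAATTA (its own reverse) at 0.918%, 6.09% and 4.47%. The E-box CATCTG (or CAGATG), of the type that Twist factors bind, stood in 8.23%, 17.1% and 14.4%. No string contains another, and the GC box and the ETS core hold a CpG themselves.

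CpG content was then held near one level by taking only windows with 20 to 30 CpG. Within them the GC box stood in 74.8%, 74.5%, 75.3% and 81.9% of windows with a peak in 0, 1, 2 and 3 lists, a narrower range than over all windows. The CCAAT box stood in 30.2%, 36.3%, 38.7% and 50.0%, a wider range than the 37.3%, 35.1%, 37.0% and 48.0% over all windows. The TATA letters stood in 6.18%, 4.54%, 4.27% and 2.46%. For the ETS core the shares were 20.6%, 20.6%, 25.1% and 24.4%, a narrower range than over all windows. The E-box stood in 11.2%, 7.94%, 8.26% and 8.46%, and the homeodomain core in 1.76%, 1.39%, 1.24% and 0.434%. The numbers of windows behind these shares were 1764, 793, 726 and 1383. Shares across windows are descriptions and were not tested, since neighbouring starts and alternative starts of one gene share sequence. The plot of CpG content and motif letters by number of lists shows these shares.

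**Figure D1:**
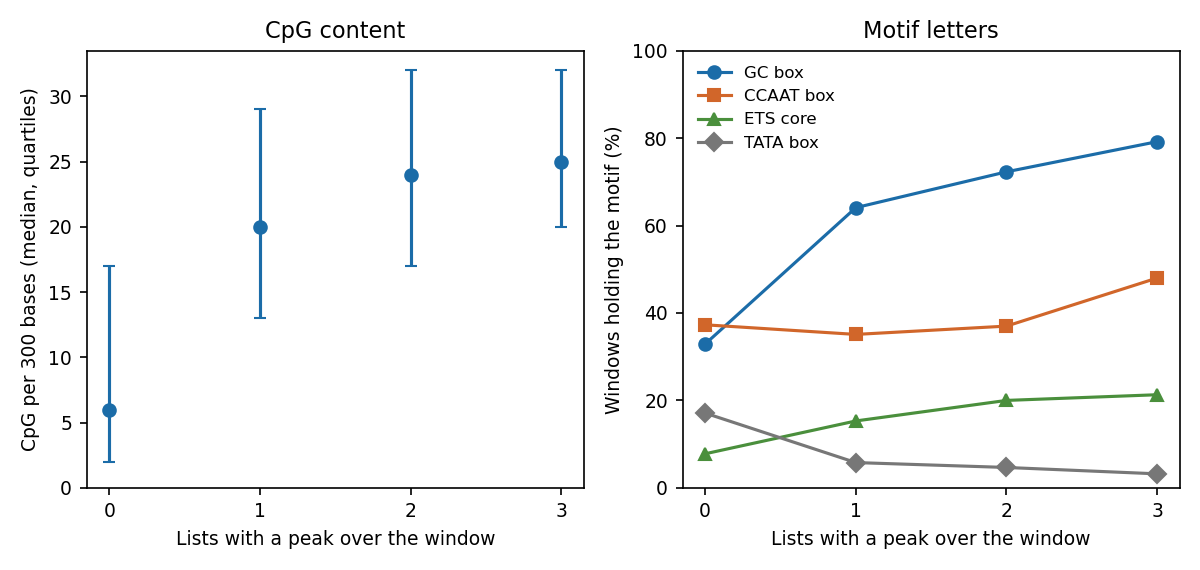
Listed coding starts by how many of the 3 E10.5 lists had a peak over the 300-base window. The left panel gives CpG per window (point, median; bars, quartiles), which rises from 6 to 25, and the right panel the share of windows holding the letters of each motif on either strand (the GC box rises from 32.9% to 79.2% and the TATA letters fall from 17.1% to 3.20%).

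Whether a peak was shared varied with its rank within its own list. Peaks were ranked by −log10 q within each list and divided into 10 groups. In the weakest group 6.70%, 2.15% and 9.81% of the peaks of samples 1, 2 and 3 lay in a region called in all lists, and in the strongest group 88.2%, 86.3% and 89.8%. Over whole lists the shares were 31.5%, 24.5% and 35.5% (30.5% ± 5.59, SD, n = 3). The 3 samples were alike at the top of their lists and differed mostly below it. The plot of shares by rank group shows the steepest rise in the 3 strongest groups.

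**Figure D2:**
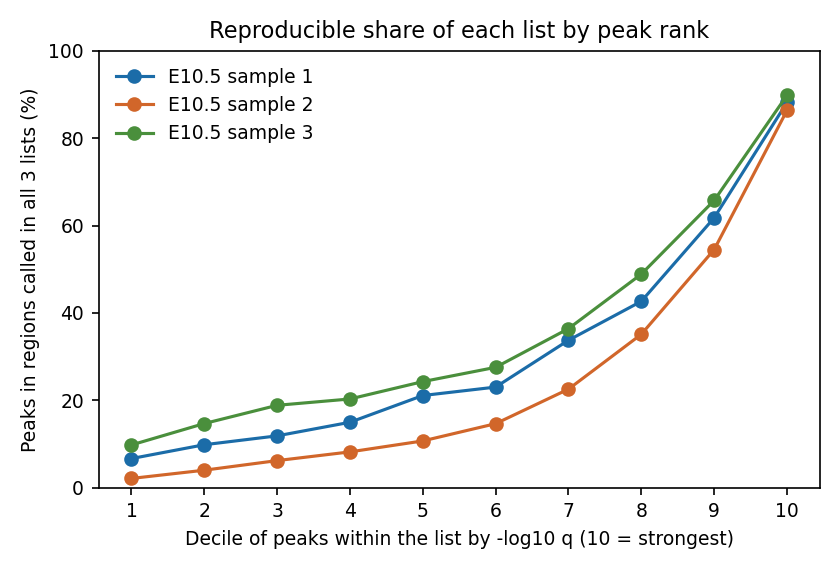
Share of each list's peaks (y axis, percent) that lie in a region called in all 3 E10.5 lists, by decile of −log10 q within the list (x axis, 10 is strongest), with 1 line per sample. All 3 lines rise to between 86.3% and 89.8% in the strongest decile.

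The rest of the merged regions were seen less often: 25055 (72.5%) were called in 1 list and 4906 (14.2%) in 2. Sample 1 alone called 7648, sample 2 alone 10475 and sample 3 alone 6932. Among regions called in 2 lists, samples 1 and 2 shared 2307, samples 2 and 3 shared 1625, and samples 1 and 3 shared 974. The share of regions within 1 kb of a coding gene's start or end was 17.3% for 1 list, 45.2% for 2 lists and 71.9% for 3 lists. A region missing from a list is not shown to be closed there, because depth and the peak caller's threshold decide what is called.

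The merged regions had a median width of 705 bp, with quartiles at 514 and 942 bp and a range from 185 to 2778 bp. The peaks inside them were narrower, with medians of 381, 570 and 284 bp in samples 1, 2 and 3, so that the merged width follows the union of unequal peaks. The stretch covered in all 3 lists had a median of 212 bp, and 350 regions had none, their peaks being linked only through a peak of another list. The 3 summits of a region lay a median of 181 bp apart, and within 250 bp of each other in 2946 regions (64.2%). Each list gave exactly 1 peak in 3616 regions (78.8%). Together the regions covered 3474 kb.

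The ranking of the regions was shared between the 3 lists in part. Spearman's rho of the fold across the 4586 regions was 0.652 between samples 1 and 2. It was 0.582 between samples 1 and 3 and 0.617 between samples 2 and 3. For −log10 q, on which the percentile ranks rest, rho was lower, at 0.535, 0.495 and 0.536 for the same pairs. These are correlations across regions, which are not independent replicates and come from the same 3 samples.

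Most regions lay at genes. Positions were taken from the summit with the highest rank, and distances from the nearest boundary (start or end) of 21631 protein-coding genes. Near a boundary (within 1 kb) lay 3296 regions (71.9%). Another 871 (18.99%) lay inside a gene farther from its ends, 122 (2.66%) outside genes at 1 to 10 kb, 237 (5.17%) at 10 to 100 kb and 60 (1.31%) beyond 100 kb. The same classes held 17.3%, 43.5%, 9.75%, 22.3% and 7.13% of the regions called in 1 list.

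Regions near a boundary and elsewhere had close merged widths, but the common stretch was longer near a boundary. Their median merged width was 704.5 bp, against 705.5 bp for the other 1290. The stretch covered in all lists was 236 bp near a boundary and 161 bp elsewhere. The median rank of a region (the mean of its 3 percentile ranks, 100 being the strongest peak of a list) was 80.4 near a boundary, 70.2 inside genes, 63.9 at 1 to 10 kb, 62.8 at 10 to 100 kb and 53.9 beyond 100 kb.

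The boundary was nearly always the start. Of 2719 regions near a boundary of a gene with a listed strand, 2698 lay at the start and 21 (0.772%) at the end. With starts taken from the RefSeq list, 3078 of 4429 regions (69.5%) had their summit within 1 kb of a start, at a median of 21 bp upstream with quartiles at 118 bp upstream and 132.8 bp downstream. Upstream lay 55.6% of these summits, and 75.02% lay within 250 bp of the start. Taken list by list, 54.5%, 53.8% and 54.4% of summits lay upstream in samples 1, 2 and 3. Starts that are not gene ends in the annotation matter too: of 1231 regions away from every boundary on chromosomes other than 18, 396 (32.2%) lay within 1 kb of a listed alternative start, and 113 (9.18%) within 1 kb of the start of a long noncoding RNA gene.

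**Figure D3:**
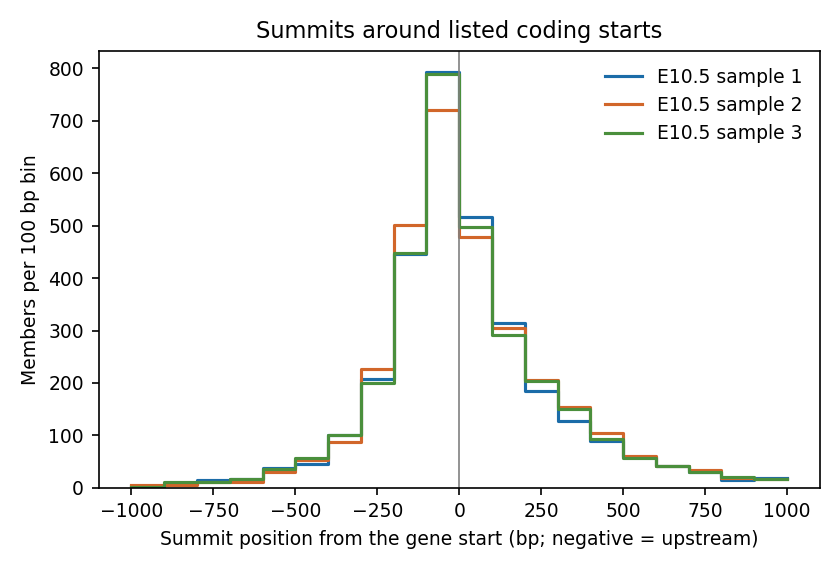
Number of regions called in all 3 lists (y axis, per 100 bp bin) by the distance of the summit from the nearest listed coding start (x axis, bp, negative upstream), with 1 line per sample's own summit. In each sample the highest bin is the one just upstream of the start.

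Some regions lay near the starts of more than 1 gene. The share of all listed starts with such a neighbour was not counted. Of the 3078 regions at a listed start, 413 (13.4%) lay within 1 kb of the starts of at least 2 coding genes, and in 408 of these the starts were on opposite strands, as at divergent gene pairs.

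The regions were spread over the autosomes at 16.2 (chromosome 7) to 31.2 (chromosome 12) per 100 coding genes, with a median of 21.7. Chromosome X had 28 regions, 2.90 per 100 genes. There 6.29% of merged regions were called in all lists, against 11.6% to 16.4% on the autosomes. The X count moved with sample 3, which had 50 X peaks: samples 1 and 2 shared 108 X regions (11.2 per 100 genes, against 32.7 on the autosomes by the same count), while samples 2 and 3 shared 33 and samples 1 and 3 shared 30.

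The strongest regions, by the mean of the 3 percentile ranks, lay at boundaries or listed starts of genes of varied function. The region of Add3, which encodes an adducin of the membrane skeleton, ranked highest (chr19:53141933-53143042), with a fold of 6.15, 6.25 and 5.34 in samples 1, 2 and 3. Its summit was 2.13 kb inside the annotated gene and 181 bp upstream of an alternative start, the printed one. The next was at Tob1, an antiproliferative gene (chr11:94211128-94211635), with a fold of 6.08, 4.83 and 5.41 and a summit 256 bp upstream of a listed start. All 3 lists placed both in the top percentile.

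Others of the 10 strongest were at Ripk2 (a kinase of innate immune signalling), Pdcd10 (a gene of cerebral cavernous malformation), Zbtb20 (a zinc finger repressor), Opn3 (an opsin), Dcbld2 (a neuropilin-like membrane protein), Pja2 (a ubiquitin ligase) and Nr1d2 (the clock repressor Rev-erb beta). Pdcd10 had the highest fold of the 10 in samples 1 and 2, at 7.41 and 6.33, with 4.92 in sample 3. Dcbld2 had the highest in sample 3, at 5.83, with 7.04 and 5.51 in samples 1 and 2. Nr1d2 had a fold of 5.13, 4.40 and 4.23. Each summit of these 7 lay within 1 kb of the gene's boundary, from 21 bp at Opn3 to 298 bp at Pja2, and none of the 10 genes is in the gene lists described further on.

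The 10 widest regions ran from 1987 to 2778 bp. Slit2, an axon guidance ligand of Robo receptors, had 2312 bp (chr5:47983603-47985914) with a fold of 3.39, 3.05 and 3.17. Efnb2, the ephrin-B2 ligand, had 2102 bp (chr8:8659722-8661823), with its summit 0.119 kb from the start and a fold of 3.83, 3.20 and 2.90. Ephb6, an Eph receptor, had 2082 bp (chr6:41604530-41606611). Cited2, a CBP/p300-binding transcriptional regulator, had 2022 bp (chr10:17722306-17724327), with its summit 17 bp from the start.

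These wide regions were built from several peaks. Slit2 held 7 peaks from the 3 lists and only 169 bp were covered in all of them, with summits 1916 bp apart. Ephb6 held 3 peaks, with 520 bp in common. The widest of all, 2778 bp at the predicted gene LOC108167694 on chromosome 9, had 1718 bp in common. The remaining 5 were at Tsc22d2, Lrrc41, Usp9x, Chsy3 and Garnl3.

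Few genes had several regions. When each region was assigned to its nearest gene within 100 kb, 3917 genes had 1 region, 263 had 2, 17 had 3 and 1 had 4. The gene with 4 was Mllt10, a chromatin regulator that partners Dot1l. All 4 lay within the gene, the nearest 1.24 kb and the farthest 10.5 kb from its boundary, with widths from 441 to 490 bp. At the region 9.34 kb in (chr2:18064334-18064783) the fold was 4.69, 3.96 and 3.83.

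Among the 17 genes with 3 regions were Klf4, Ccne1, Hmga2 and Maml3, of which Hmga2 and Maml3 lay outside the leading 10 by median rank and were chosen after their values were seen. Hmga2, an architectural chromatin protein of embryonic growth, had 1 region just inside and 1 just outside the same boundary, at 0.744 and 0.408 kb, and 1 at 76.3 kb. The region just outside had the highest rank of the 3 (chr10:120476516-120477336, fold 3.63, 3.00 and 3.31). Klf4, a zinc finger factor of epithelia and pluripotency, had 1 region inside the gene, 2.33 kb from the nearer end, and others at 12.3 and 58.4 kb. Ccne1, the cyclin E1 gene, had 1 at a boundary (0.321 kb) and a pair at 12.4 and 12.9 kb. Maml3, a Notch coactivator, had 3 inside the gene, at 2.88, 14.3 and 63.0 kb. The other genes in the leading 10 were Pura, Ywhaz, Gm38664, Sh3rf1, Adgrl3, Trim36 and Spdya. With 1 list left out, 2 lists decide and the number of genes with at least 3 regions rose from 18 to 77, 58 and 90 without samples 1, 2 and 3.

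A region of all 3 lists within 1 kb of a boundary was found at 3794 of 21631 coding genes (17.5%). Counting also a gene that was nearest to a region within 100 kb, the number was 4720 (21.8%). A peak summit within 1 kb in at least 1 list was found at 9287 genes (42.9%). These shares are the background for the gene lists below, whose 279 genes were all found in the annotation. Of the list genes, 28 (10.0%) had a region at a boundary, 57 (20.4%) any region and 131 (47.0%) a summit in at least 1 list. The first count was 43, 31 and 46 without samples 1, 2 and 3 (15.4%, 11.1% and 16.5% of the list genes, beside 20.7%, 18.96% and 22.9% of all genes). The list genes thus stood below all genes for a region of all 3 lists at a boundary. They stood near all genes for any region and for a peak in any list.

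The 4 markers of the labelled tissue differed. Twist1, a basic helix-loop-helix factor of cranial neural crest mesenchyme, had a region over its start (chr12:33956935-33958038), with a fold of 3.49, 2.85 and 2.70 in samples 1, 2 and 3. Dlx2, a homeodomain factor of the maxillary and mandibular arches, had a region inside the gene at its start (chr2:71546149-71546759) with 2.82, 2.16 and 2.59. A second Dlx2 region lay 4.11 kb beyond its other end (chr2:71539163-71539636), on the side of Dlx1, with 3.24, 2.57 and 2.88. The second one ranked higher in all 3 lists, at percentiles 79.7, 80.7 and 88.8 against 62.4, 47.9 and 82.8 at the start.

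Prrx1, a paired-type homeodomain factor of limb and facial mesenchyme, had no summit within 1 kb of a boundary in any list. Its one region lay inside the gene, 2.70 kb from the annotated start end (chr1:163311950-163312594), with a fold of 3.34, 2.48 and 2.25. The region ranked at percentile 69.4, 49.3 and 7.78. The printed Prrx1 window belongs to another listed start, which lies inside the gene between that end and the region. Tfap2a, the AP-2 alpha gene of neural crest and surface ectoderm, had no region. Sample 3 alone had a peak near it, 0.236 kb from a boundary with a fold of 2.69, while the nearest peaks of samples 1 and 2 were 6.63 and 143 kb away. So 3 of the 4 markers had a region and 2 of 4 had one at the start. In bulk tissue, a site open in few cells and a site weakly open in all cannot be told apart.

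Of the 21 neural crest and mesenchyme identity factors, 3 had a region at a boundary (14.3%, beside 17.5% of all genes). Any region was found at 7 (33.3%, beside 21.8%). The number at a boundary was 5 without sample 3 and 0 with peaks under a −log10 q of 5 left out. Besides Twist1 these were Sox9, the chondrogenic and crest factor, with a region 0.047 kb from its boundary (chr11:112782034-112783002, fold 2.43, 2.34 and 2.31), and Zeb1, the mesenchymal zinc finger repressor, with a fold of 3.91, 3.07 and 2.73 at 0.359 kb. Zeb1 also had a region 44.5 kb outside the gene. The Sox9 region ranked low in sample 1 (percentile 15.4) and higher in sample 2 (71.4).

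The other identity factors with a region had it more than 1 kb from a boundary. Alx4, an aristaless-type homeodomain factor of the facial mesenchyme, had it 22.8 kb outside (chr2:93619555-93619806, 3.13, 2.64 and 2.19) and Twist2 33.0 kb beyond its end (chr1:91880822-91881099, 3.19, 2.82 and 2.42). No region was assigned to Prrx2, Tfap2a, Tfap2b, Alx1, Snai1, Snai2, Ets1, Msx1, Msx2, Zeb2, Mycn, Id1, Id2 or Id3. Of these, Snai1, Snai2, Id1 and Id2 had a summit near in 2 lists, and Prrx2, Tfap2b, Alx1, Ets1, Msx2, Zeb2 and Mycn in none.

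Of the 25 Dlx and jaw identity factors only Dlx2 had a region at a boundary (4.00%). Any region was found at 4 (16.0%, beside 21.8% of all genes). Without sample 1 or sample 3 the number at a boundary was 2. It was 0 with peaks under a −log10 q of 5 left out. Dlx1, the neighbour of Dlx2, had one inside the gene 1.28 kb from its start (chr2:71529083-71529701), with a fold of 2.86, 2.52 and 2.10. Lhx6, a LIM-homeodomain factor of the tooth-forming mesenchyme, had one inside the gene 9.46 kb from its end (chr2:36091122-36091682, fold 2.94, 2.30 and 2.90), at percentiles 68.3, 56.9 and 92.5.

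Among the factors with no region were Dlx3, Dlx4, Dlx5, Dlx6, Hand1, Hand2, Gsc, Nr2f1, Nr2f2, Pou3f3, Emx2, Six2, Six4, Eya1, Lhx8, Barx1, Pax9, Pax3, Pitx1 and Otx2. Dlx5 had a summit near in samples 1 and 2. Barx1, Nr2f1, Gsc and Dlx3 had one in sample 1 alone, and Dlx6, Pou3f3, Emx2, Six2 and Six4 in sample 2 alone. In all, 13 of the 25 (52.0%) had a summit in at least 1 list, beside 42.9% of all genes.

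The 26 palate, T-box, forkhead and TALE homeodomain factors had 4 genes with a region at a boundary (15.4%). Any region was found at 8 (30.8%, beside 21.8% of all genes). The number at a boundary was 8 without sample 1 and 1 with peaks under a −log10 q of 5 left out. It was also 1 within 500 bp. Pbx3, a TALE partner of Hox and Meis proteins, had a region 0.901 kb outside its boundary (chr2:34372407-34373528, fold 3.31, 3.25 and 3.57), at percentiles 75.4, 92.7 and 96.9. Foxp1 and Foxp2, forkhead repressors, had theirs at 0.770 kb (chr6:99521483-99522203, 3.09, 3.17 and 3.04) and 0.502 kb (chr6:14900142-14900888, 3.34, 2.95 and 2.66). At Foxp1 only sample 2 had a summit within 1 kb of a boundary.

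Meis1, Meis2, Mef2c and Tbx15 had regions farther away. The Meis1 region lay 7.65 kb upstream of the gene (chr11:19026785-19027489, fold 4.36, 3.07 and 2.75), and the Meis2 region 8.51 kb beyond its end (chr2:115852549-115852910, 3.88, 2.76 and 2.42). The region nearest to Mef2c, a MADS-box factor of craniofacial development, lay 63.9 kb beyond the gene's end (chr13:83730505-83731430, 4.15, 3.25 and 2.42). The Tbx15 region, inside the gene, had the lowest rank of these factors (chr3:99253859-99254169, 2.51, 2.22 and 2.31), at percentiles 2.33, 16.1 and 14.7.

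No region was assigned to Tbx1, Tbx2, Tbx3, Tbx18, Tbx22, Foxc1, Foxc2, Foxd1, Foxd2, Foxf1, Foxf2, Osr1, Osr2, Shox2, Meis3, Pbx2, Zfhx3 or Zfhx4. Tbx18 had a summit near in samples 1 and 2, and Foxc1, Foxd1 and Foxd2 in samples 2 and 3. Together the identity, jaw and palate lists held 72 genes, of which 8 (11.1%) had a region at a boundary, 19 (26.4%) any region and 39 (54.2%) a summit in at least 1 list. The corresponding shares of all genes were 17.5%, 21.8% and 42.9%.

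**Figure D4:**
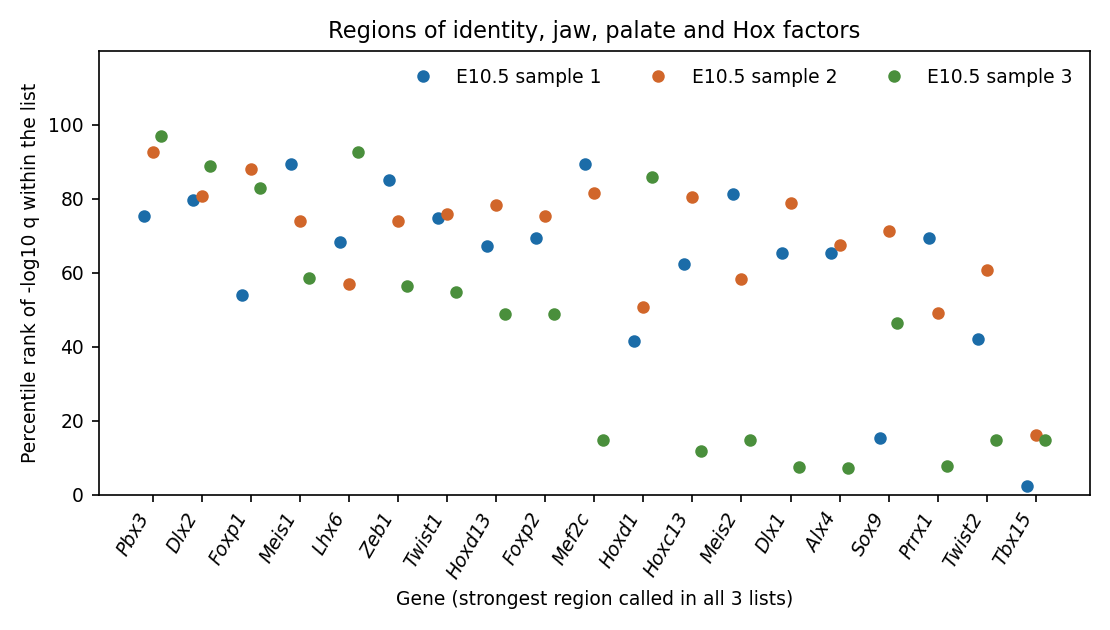
Percentile rank of −log10 q within each list (y axis, 100 is strongest) for the strongest region of the identity, jaw, palate and Hox factors described in the text, ordered by mean rank, with 1 point per sample. Pbx3 sits at 75.4 to 96.9 and Tbx15 at 2.33 to 16.1, while Prrx1 ranges from 7.78 to 69.4.

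Of the 39 Hox genes 3 (7.69%) had a region, each at a boundary; the number was 1 without sample 2 and 5 without sample 3, 1 within 500 bp and 0 with peaks under a −log10 q of 5 left out. The neural crest of the maxillary prominence is known to lack Hox expression. Hoxd1 had its region 0.103 kb upstream of the start (chr2:74762628-74763653, fold 3.18, 2.73 and 3.13) and Hoxd13 0.574 kb inside the start (chr2:74668384-74668985, 3.50, 3.16 and 2.67), so that they lie near the opposite ends of the HoxD cluster. Hoxc13 had its region 0.629 kb inside a boundary (chr15:102921431-102922062, 3.08, 2.72 and 2.26). Of the 39, 13 (33.3%) had a summit near in at least 1 list, beside 42.9% of all genes. Hoxa13, Hoxb1, Hoxc8 and Hoxc10 had one in 2 lists. The other 26 had none, among them every member from Hoxa2 to Hoxa11 and Hoxb2 to Hoxb8. Accessibility was measured here, not transcription.

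Of the 92 genes of the signalling lists, 15 (16.3%) had a region at a boundary, 28 (30.4%) any region and 54 (58.7%) a summit in at least 1 list, beside 17.5%, 21.8% and 42.9% of all genes. At a boundary the hedgehog (28.6%) and Bmp and Tgf-beta (23.8%) lists lay above 17.5% by few genes. With each list cut to its 14886 strongest peaks, 4 of 14 and 4 of 21 of these genes had one there, beside 17.1% of all genes. The Wnt (13.0%), Fgf and Pdgf (10.5%) and retinoic acid (6.67%) lists lay below 17.5%. For any region the shares were 38.1% (Bmp and Tgf-beta), 36.8% (Fgf and Pdgf), 35.7% (hedgehog), 30.4% (Wnt) and 6.67% (retinoic acid), beside 21.8%. These differences were not tested. In the hedgehog pathway, which the oral and nasal epithelium activates in this mesenchyme through Shh, 4 of 14 genes had a region at a boundary (7 without sample 3, and 0 with peaks under a −log10 q of 5 left out) and 5 any. These were the co-receptors Cdon and Gas1, the cytoplasmic inhibitor Sufu and the transcription factor Gli3, with Boc at a distance.

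Gli3 had its region 0.323 kb upstream of its start (chr13:15463093-15464122, fold 3.20, 3.56 and 3.27) and another inside the gene. Cdon had a fold of 4.39, 3.25 and 2.79 at 0.100 kb (chr9:35421145-35422212), Sufu 2.92, 2.71 and 2.93 at 0.103 kb (chr19:46396749-46397377), and Gas1 3.18, 2.88 and 2.28 at 0.108 kb (chr13:60177045-60177969). Smo, the signal transducer, had a summit near a boundary in all 3 lists but no region counted there. The same held for Acvr1, Lrp6, Bglap, Dusp6 and Fzd2 of the other lists.

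Of the 21 Bmp and Tgf-beta genes 5 had a region at a boundary (23.8%) and 8 any. With peaks under a −log10 q of 5 left out, 1 had one at a boundary. Among the receptors, Tgfbr1 had a region 0.067 kb from its start (chr4:47352020-47353478), with a fold of 4.09, 4.31 and 3.43 and percentiles of 92.3, 98.6 and 94.7. Bmpr2 had one 1.38 kb upstream (chr1:59762661-59764128, 3.78, 3.63 and 3.33), Tgfbr3 at 0.090 kb (chr5:107289133-107289711, 3.48, 3.25 and 2.97) and Bmpr1a at 0.259 kb (chr14:34502821-34503245, 3.71, 2.37 and 2.84), the last at percentiles 75.6, 11.1 and 70.8. Among the mediators Smad4 had one at 0.281 kb. The antagonist Grem1 had one at 0.103 kb, and the ligand Bmp2 one 1.01 kb inside the gene, just over the limit. The region assigned to Smad1 lay 94.4 kb away. Bmp4 had a summit near in 2 lists and no region.

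Of the 19 Fgf and Pdgf genes 2 had a region at a boundary (10.5%) and 7 any. The number at a boundary was 4 without sample 1 and 1 with peaks under a −log10 q of 5 left out. Etv5, a transcriptional target of Fgf signals, had one 0.261 kb upstream of its start (chr16:22439395-22439946, fold 3.46, 3.20 and 2.90), and the ligand Pdgfc one at 0.223 kb. Pdgfra, the receptor that marks facial mesenchyme, had one inside the gene 4.86 kb from its start (chr5:75155688-75156410, 2.95, 2.83 and 2.58), at percentiles 76.3, 92.0 and 79.0. Etv1 (1.33 kb), Dusp6 (1.28 kb) and Spry1 (1.23 kb), the latter pair being feedback inhibitors, had regions just outside the 1 kb limit. Dusp6 also had a summit within 1 kb of a boundary in all 3 lists. Fgf18 had its region at 56.4 kb.

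Of the 23 Wnt genes 3 had a region at a boundary (13.0%) and 7 any. Without samples 2 and 3 in turn, 5 and 6 had one at a boundary. With peaks under a −log10 q of 5 left out, 0 had one there. The receptor Fzd1 had a pair, 0.108 and 1.09 kb from the start inside the gene, with a fold of 3.59, 3.62 and 2.38 at the first (chr5:4757832-4758280). The transcription factor Tcf7l1 had a pair on either side of its start, at 0.336 and 0.216 kb. Ror2, a receptor for Wnt5a, had a fold of 3.41, 2.58 and 2.21 at 0.418 kb (chr13:53285408-53285891). Fzd7 had one 1.74 kb from its start with 4.07, 2.63 and 2.76, and Fzd2, Axin1 and Tcf7l2 also had regions. Among 15 retinoic acid genes Aldh1a3, a retinoic acid synthesis enzyme, was the one with a region (0.067 kb, chr7:66427056-66427761, 3.09, 2.75 and 2.67). At a boundary, 3 of these genes had one without sample 3, and 0 with peaks under a −log10 q of 5 left out.

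Genes of later differentiation and of other cell types had few regions. None of 16 skeletal and tooth differentiation genes had one at a boundary, beside 17.5% of all genes, and Sox5 had one 20.8 kb upstream. A summit near in at least 1 list was found at 7 of the 16 (43.8%), beside 42.9% of all genes. Of 14 epithelial markers 0 had any region, and 4 (28.6%) had a summit near in at least 1 list (Cdh1 and Esrp1 in 1 list and Cldn6 in 2 among them). None of 12 endothelial markers had one at a boundary, with Sox17 at 1.34 kb and Etv2 at 1.25 kb, and none of 11 blood and macrophage markers, with Runx1 at 5.01 and 97.0 kb. Kdr, the Vegf receptor of endothelium, had a summit near in all 3 lists but no region counted at a boundary. Without sample 1, 2 skeletal, 1 epithelial and 1 endothelial gene had a region at a boundary, and without sample 3, 1 of each.

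Of 9 myogenic markers Msc, a basic helix-loop-helix factor of facial muscle precursors, had one 0.800 kb inside a boundary (chr1:14755232-14755791, fold 4.08, 2.5 and 2.96), and Myf5, Myod1, Myog, Myf6, Pax7, Tcf21, Des and Acta1 had none. Of 14 neuronal and glial markers Elavl4 had one at 0.114 kb (chr4:110351373-110351989, 4.04, 3.16 and 2.58) and Neurog2 one at 1.27 kb; without sample 2 or sample 3, 2 of the 14 had one at a boundary. Over the 5 marker lists of other cell types, 60 genes, 2 (3.33%) had a region at a boundary and 6 (10.0%) any, beside 17.5% and 21.8% of all genes. With peaks under a −log10 q of 5 left out, the myogenic, neuronal and glial markers had no region at a boundary. The part of these other cell types in the other results was not tested.

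**Figure D5:**
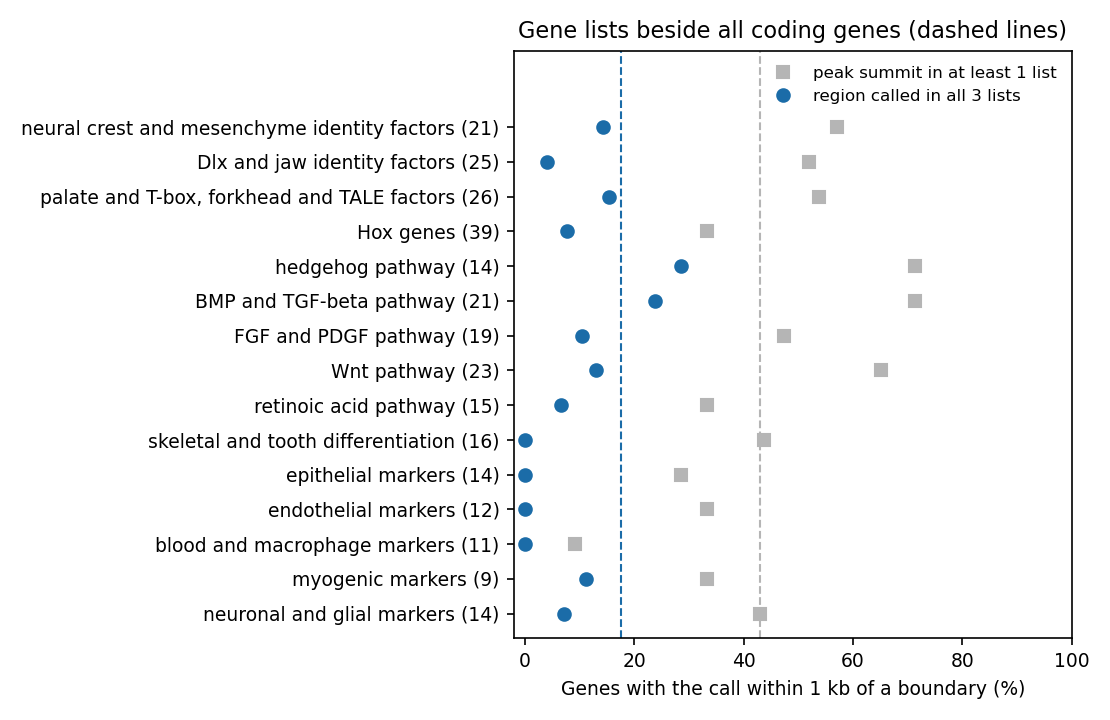
Share of each gene list (x axis, percent; list size in parentheses) with a region called in all 3 lists (blue circles) or with a peak summit in at least 1 list (grey squares) within 1 kb of a boundary. The dashed lines give the shares of all 21631 coding genes, 17.5% and 42.9%. The hedgehog (28.6%, 4 of 14 genes) and Bmp and Tgf-beta (23.8%, 5 of 21 genes) lists are the ones to the right of the blue line. Their distance from it was not tested.

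The starts of the list genes also differed in sequence. The 61 listed starts of 43 identity, jaw and palate factors had a median of 16 CpG per 300 bases, those of 22 Hox genes 14.5, those of 66 signalling genes 19 and those of 37 markers of other cell types 8, against 13 over all listed starts. All 3 lists had a peak over 2 of the 61 (3.28%), 0 of 24 Hox starts, 6 of 93 signalling starts (6.45%) and 1 of 45 marker starts (2.22%), against 14.0% of all starts. The identity, jaw and palate starts were thus richer in CpG than the median start and had fewer windows open in all lists. Starts were listed for 43 of the 72 factors, so these values do not cover the whole lists.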

How the data were processed

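ATAC-seq peak lists of 3 E10.5 samples were used, and the 6 lists of later stages were not used here. Bowtie2, MACS2, deepTools 3.3.1 and the build mm10 appear in the submitters' processing notes. Peak calling on paired-end alignments with blacklisted regions taken out is stated per the labels. Read filters, any shift for the transposase and the calling threshold were not found in those sources. Per the file layout, each deposited list gives positions and summits (bp), the fold enrichment (a ratio) at the summit and the −log10 p and −log10 q of the authors' caller. The lists hold no counts, so depth is unknown and no counting interval can be given.

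Peaks sharing at least 1 bp were merged with Python 3.11.15, NumPy 2.4.6 and pandas 2.3.3 (plots with Matplotlib 3.10.9). The merging was tested on simulated peaks. A region's position is the summit with the highest within-list rank. Distances run to the nearest start or end of 21631 protein-coding genes (RefSeq, GRCm38.p6), because that table gives no strand; strand and starts came from a RefSeq start list covering 79.9% of them, without chromosome 18. Exons, introns and UTRs were not separated. No test between groups was made, since there is 1 group, and values are descriptions with their spread over 3 lists. The region set and the 15 gene lists were chosen with earlier results of these data known, and the motifs and symbol families after the files were seen. Named genes are every member of the identity, jaw, palate and Hox lists, the 10 genes with the most regions, the 10 strongest and 10 widest regions, and the members of each other list that have a region, with fold values for up to 4; a few of these genes are not reported here. Genes named from their nearby summits alone, as well as Hmga2 and Maml3, were chosen after their values were seen. The motif search covered 10 strings. Those not described above were TGACGTCA, GCGCATGCG, AAGATGGCG and TCTCGCGA, on either strand. They stood in 4.55%, 4.32%, 3.98% and 3.67% of windows open in all lists. In windows with no peak the shares were 1.52%, 1.38%, 1.08% and 0.613%.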

Additional observations from a re-analysis of the deposited data

How the results depend on the processing

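Requiring a −log10 q of at least 5 left 1413 regions with a median width of 850 bp, 84.0% near a boundary, 1422 genes (6.57% of all) with a region, 1 gene with at least 3, and 3 of the 279 list genes (1.08%). Requiring every summit within 250 bp of the median summit left 3467 regions, 74.7% near a boundary and 8 genes with at least 3. Lists cut to the 14886 strongest peaks gave 4412 regions and moved no summary value beyond its spread or 1.5 times. Near a boundary lay 62.5% of regions at a limit of 500 bp, 79.6% at 2.5 kb (44 list genes), and 77.5% with all 49554 annotated genes at 1 kb. With the nearest gene within 20 kb, 6 genes had at least 3 regions. Counting only the stretch covered in all lists, the median width was 212 bp.

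Leaving out each sample in turn, with regions called in both other lists, gave 5452 to 6859 regions, median widths of 459 to 589 bp, 64.2% to 67.1% near a boundary, 4101 to 4945 genes with a region, 58 to 90 genes with at least 3, and 31 to 46 list genes. In these settings a region needs 2 lists and not 3. The 28 list genes were all among the 43 and 46 found without samples 1 and 3, and 25 of them among the 31 without sample 2. Of 120 counts of single gene lists under these settings, 77 stayed within 1.5 times and 43 did not, all of them counts of 8 or fewer. No paired analysis was possible because there is 1 group. Depth is unknown, so an uncalled region is not shown to be closed.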

Other observations

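Families of genes with shared symbols were counted after the regions had been seen, with no test, beside 17.5% of all coding genes with a region within 1 kb of a boundary. Among housekeeping families, 5 of 9 genes of the chaperonin CCT (55.6%) had one, Cct2, Cct3, Cct6a, Cct7 and Cct8. So did 5 of 11 SR splicing factors (45.5%), 16 of 37 ubiquitin-conjugating enzymes (43.2%), 18 of 49 genes with Nduf symbols (36.7%; subunits and assembly factors of respiratory complex I), 25 of 69 Rab GTPases (36.2%), 13 of 47 translation initiation factors (27.7%) and 12 of 48 genes with Psm symbols (25%; proteasome subunits and their activators). Large ribosomal proteins stood at 12 of 52 (23.1%) and small ones at 4 of 31 (12.9%), although 61.3% of the latter had a summit in at least 1 list. Zinc finger genes with Zfp symbols stood at 78 of 397 (19.6%) and solute carriers at 51 of 375 (13.6%).

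Of 44 forkhead genes 6 had a region (13.6%), Foxj2, Foxj3, Foxk2, Foxl2, Foxp1 and Foxp2, and of 19 Sox genes 3 (15.8%), Sox2, Sox9 and Sox11. A summit in at least 1 list was found at 59.1% of the forkhead and 68.4% of the Sox genes, beside 42.9% of all genes. Of 22 Fgf ligands Fgf5 had one, and 0 of 19 Wnt ligands and 0 of 17 T-box genes did. Collagens stood at 3 of 44 (6.82%). Of 1110 olfactory receptor genes 3 had a region (0.270%) and of 355 vomeronasal receptor genes 0, and 2.79% and 0.282% had a summit in at least 1 list.

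Of 1005 miRNA hairpins on chromosomes other than 18, 29 lay within 1 kb of a region and 13 overlapped one. No background share was counted for these numbers, so they do not show whether hairpins lay near regions more or less often than other sites. Mir484 (chr16:14159626-14159692, plus strand) lay inside the region at the start of Marf1 (fold 4.02, 3.20 and 3.29). Mir210 (chr7:141221384-141221493) and Mir148a (chr6:51269812-51269910), both on the minus strand, lay within 1 kb of regions with a fold of 2.64, 2.63 and 2.42 and of 3.56, 2.82 and 2.20. These 3 were chosen after the values were seen, as hairpins with well-known mature forms, and their mature sequences from RefSeq (GRCm38.p6) follow with the seed, bases 2 to 8, in capitals. They share no seed, and no miRNA level was measured.
miR-484: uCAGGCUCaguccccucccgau
miR-210-3p: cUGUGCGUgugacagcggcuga
miR-148a-3p: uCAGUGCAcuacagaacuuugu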
